A study of Mus musculus with 40 samples.

Results

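Oligodendrocytes wrap axons in myelin, a stack of membrane that speeds conduction. This work follows 33 genes of myelin and of the mature oligodendrocyte through 40 RNA-seq libraries of mouse striatum. The genes were taken by name from the 24060 gene symbols of the count table, and all 33 were found and passed the filter on low counts in every comparison. They comprise 9 genes for structural proteins of myelin, 8 genes for lipid synthesis and metabolism, 10 genes of the cytoskeleton, the paranode or stress protection, and 6 regulators and others. They lie on 13 chromosomes.

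The membrane of myelin is rich in galactolipids, which are built by Ugt8a, Fa2h and Gal3st1, and its layers are held together by proteins such as MBP. Much Mbp mRNA is known to be carried out of the cell body and translated at the myelin sheath itself, and Mobp mRNA is transported in a similar way. The transcription factor MYRF switches on many of these genes when an oligodendrocyte matures. The striatum is crossed by bundles of myelinated fibres, so that its total RNA holds much of this message.

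In RiboTag, a viral vector makes chosen cells produce the ribosomal protein RPL22 with a haemagglutinin tag, and RNA bound to tagged ribosomes is pulled down from a tissue lysate (IP). The input is RNA of the same kind of lysate before the pull-down. Each group held 4 libraries. The group labelled Control had IP and input libraries of 4 C57/BL6NTac mice. Its vector is not named in the labels. It was taken to be the one driven by the astrocyte promoter GfaABC1D, because the methods name that vector and one driven by the neuronal promoter hSYN1 in this strain, and the libraries of the other IP are titled SynIP. That neuron IP and its input were also from C57/BL6NTac mice, and both cohorts were injected at 6 weeks of age according to the methods. The SAPAP3 cohort had IP and input libraries of wild-type (WT) mice labelled C57/BL6J and of SAPAP3 KO mice labelled C57/BL6J-Dlgap3 KO, injected at 4.5 months, with no cell type named for the RiboTag. The KO lacks SAPAP3, the scaffold protein of the postsynaptic density that Dlgap3 encodes. A further 8 libraries, 4 per genotype, came from striatal tissue without a pull-down (bulk). Those of both genotypes were labelled C57/BL6NTac, and 1 animal identifier stands under both genotypes.

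Counts summed to between 23438112 and 84109800 per library. Rpl22, the tagged gene, was higher in all 4 IP sets than in their inputs, with a log2 fold change, written log2(FC), between 1.85 and 2.85. Markers of the targeted cells rose as well. All 10 astrocyte markers were higher in the Control IP, the SAPAP3 WT IP and the SAPAP3 KO IP, with median log2(FC) of 2.93, 2.30 and 2.37. All 10 neuron markers were higher in the neuron IP, with a median of 0.80, and in the Control IP 7 of them were lower and 2 higher. In the SAPAP3 WT IP 7 neuron markers were lower and 1 higher, and in the KO IP 9 were lower and 1 higher. Of the 10 astrocyte markers, 7 were lower and 1 higher in the neuron IP, with a median of -0.64. Microglia markers and endothelial markers fell in every IP, all 10 of each, with medians between -5.82 and -2.91. Of 8 choroid plexus markers, 5 were tested in the Control IP, where 2 were higher and 2 lower. Libraries of the Control cohort had 0 to 1 counts of Xist and those of the neuron cohort 1843 to 14313, so a difference between these cohorts may be one of targeted cells, of sex or of cohort, which cannot be told apart.

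The question put to the data was whether myelin RNA is kept or lost when tagged ribosomes are pulled down. Which cells carried the tag was not measured here. The answer differed between cohorts. Added together, the 33 genes took 6704 to 7595 CPM, a library's counts scaled to a fixed total, in the 4 Control inputs and 5105 to 7935 in the 4 Control IP libraries, which overlapped. In the neuron cohort they took 6106 to 7591 CPM in the inputs and 2079 to 2803 in the IP, without overlap. In the SAPAP3 cohort the direction was the opposite. WT inputs held 7426 to 8446 CPM and WT IP libraries 9885 to 15360, and KO inputs held 7309 to 7749 and KO IP libraries 10730 to 14360. In the neuron cohort the labels give IP and input different animals, so libraries were set against each other there by the number in their titles, and in the other cohorts by mouse. IP over input was 0.761 to 1.04 for Control, 0.318 to 0.371 for neurons, 1.23 to 2.07 for SAPAP3 WT and 1.42 to 1.85 for SAPAP3 KO. Without Mbp it was 0.887 to 1.22, 0.356 to 0.411, 1.44 to 2.36 and 1.7 to 2.15 in the same order. In these sums on total counts, the direction of the Control mean depended on Mbp, and IP and inputs overlapped with and without it. The mean sum went from 7147 CPM in the inputs to 6753 in the IP with it, and from 5048 to 5578 without it. Scaling to total counts moved the median of all genes by -0.22 on the log2 scale in the Control comparison. Sums under other scaling were not computed. In RNA from mixed tissue, fewer cells of a type and less RNA per cell cannot be told apart.

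**Figure D1:**
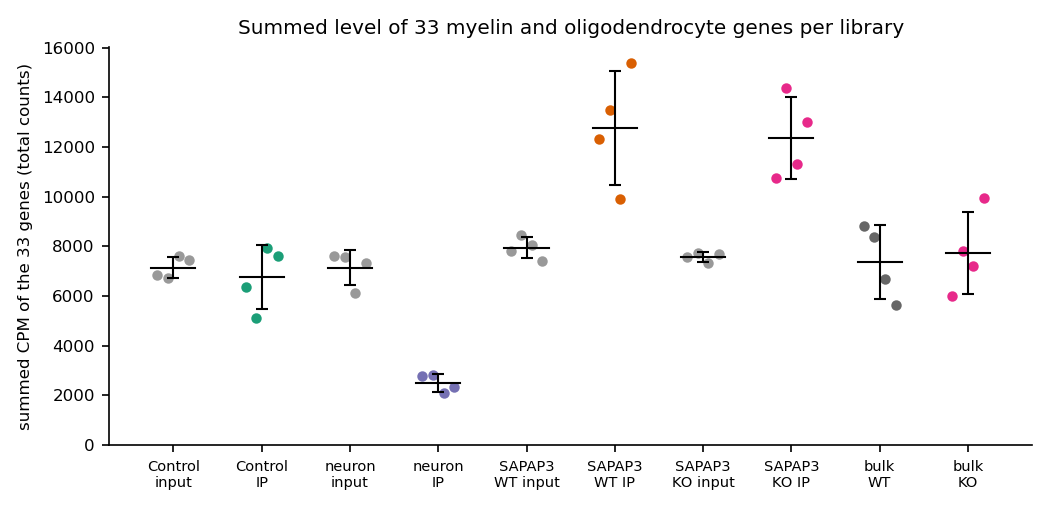
Summed CPM of the 33 genes, scaled to total counts, in each of the 40 libraries by group, with 1 point per library and the mean and SD in black. Neuron IP libraries lie at 2079 to 2803, below every input, and SAPAP3 WT and KO IP libraries lie at 9885 to 15360, above every input.

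Depletion in the neuron IP took in the whole set. All 33 genes were lower in the neuron IP than in its input at an adjusted p under 0.05 in edgeR's quasi-likelihood test, against 35.9% of 16198 genes tested, and 0 were higher, against 35.5%. With the further limit of a log2(FC) below -1, 26 of the 33 were called lower, against 15.8% of all genes, and 0 were called higher, against 0.42%. The median log2(FC) of the set was -1.52, compared with 0.00 over all genes tested. In 32 of the 33 genes every IP library lay below every input library, which held for 32.3% of all genes tested.

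All 9 structural genes passed the fold limit, with a median of -1.87, the lowest of the 4 roles. Mobp, a basic protein between the layers of compact myelin, read 29.1 to 38.6 FPKM, which is counts scaled to library size and gene length, in the neuron inputs and 4.99 to 7.09 in the neuron IP. Its log2(FC) was -2.57 ± 0.13 (SE, n = 4 and 4, adjusted p = 1.5e-07), the largest drop of the set. Mbp read 222 to 271 FPKM in the neuron inputs and 63.8 to 79.8 in the IP, a log2(FC) of -1.87 ± 0.09. Groups of both genes were far apart relative to their spread.

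The other 7 genes called lower stayed inside the fold limit. Nfasc encodes neurofascin, whose isoforms are made by neurons at the node and by oligodendrocytes at the paranode. It read 17.3 to 18.7 FPKM in the neuron inputs and 12.7 to 15.7 in the IP, with a log2(FC) of -0.39 ± 0.07. Its neighbour on chromosome 1, Cntn2, an adhesion molecule of axons and glia, fell by 0.44 on the log2 scale. Carns1, the synthase of the dipeptide carnosine, fell by 0.48 and Trf, which encodes the iron carrier transferrin, by 0.67. Sirt2, a tubulin and histone deacetylase, Gsn, the actin-severing protein gelsolin, and Enpp2, the lysophospholipase autotaxin, were the remaining genes, with log2(FC) of -0.78, -0.79 and -0.84. The 6 genes of regulators and others all passed the limit, between -2.15 for the membrane protein gene Tmem88b and -1.34 for the orphan receptor gene Gpr37.

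In the Control IP the set went both ways, with neither count of called genes above its share over all genes. Of the 33 genes, 12 were higher than in the input, against 39.2% of 15476 genes tested, and 9 were lower, against 41.2%. Past the fold limit, 1 was higher and 3 were lower, against 13.4% and 13.5% of all genes, and in total counts 0 were higher. The median of the set was 0.14 on the log2 scale, but -0.08 when libraries were scaled to total counts, a choice that moved the median of all genes in this comparison from -0.02 to -0.25. With the mouse as a block, 15 were higher and 11 lower, and the share over all genes was not computed for that fit.

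Among the 9 structural genes 4 fell, near the share over all genes, and 1 rose. Mbp fell to 65.3% of its input, from 248 to 304 FPKM in the 4 inputs to 138 to 252 in the 4 IP libraries, and the highest IP library stood at the level of the lowest input. Its log2(FC) was -0.61 ± 0.15 (adjusted p = 0.0022 in edgeR's test). Mobp went from 40.9 to 49.1 FPKM in the inputs to 17.4 to 30.2 in the IP, without overlap, with a log2(FC) of -1.05 ± 0.13. Mog and Pllp, 2 genes for membrane proteins of the sheath, fell by 0.38 and 0.30. Cnp, which encodes an enzyme of the cytoplasmic channels of myelin, rose, from 132 to 151 FPKM in the inputs to 158 to 230 in the IP, with a log2(FC) of 0.43 ± 0.10. This call was lost with total counts, at 0.21 and an adjusted p of 0.064 in the same test. Mag, Mal, Cldn11 and Tspan2 were not called, at 0.17, -0.18, 0.28 and 0.14.

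Of the 8 genes of lipids and metabolism 3 were higher and 2 lower, neither above the share over all genes. Car2, carbonic anhydrase 2, had the largest rise of the set. It read 82.9, 85.2, 96.7 and 92.8 FPKM in the Control inputs and 184, 189, 235 and 220 in the Control IP, a log2(FC) of 1.13 ± 0.08 (adjusted p = 1.1e-07, edgeR). Every IP library was above every input library. Trf rose by 0.80 ± 0.22 but with a wide spread, from 295 to 735 FPKM over the 4 IP libraries. Gal3st1, the sulfotransferase that makes sulfatide, fell from 5.41 to 6.77 FPKM in the inputs to 2.50 to 3.35 in the IP, a log2(FC) of -1.10 ± 0.11. Ugt8a and Fa2h, which act before it in the same lipid pathway, were not called, at -0.02 and 0.14.

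The lowest value of the set belonged to Hapln2, a link protein of the extracellular matrix around the node. It read 8.06, 8.02, 7.72 and 7.79 FPKM in the Control inputs and 3.27, 2.66, 3.87 and 3.46 in the Control IP, a log2(FC) of -1.33 ± 0.10 (adjusted p = 1.5e-07, edgeR). Bcas1, a gene of early myelinating oligodendrocytes, fell by 0.77 and Ppp1r14a, a phosphatase inhibitor, by 0.28. The call of Ppp1r14a was lost when any of 5 of the 8 libraries was left out. Sirt2, Cryab, Gsn, Nfasc and Cntn2 rose, by 0.44 to 0.69. Cryab encodes a small heat-shock protein of glia. Of the regulators, Myrf read 4.33 to 5.16 FPKM in the inputs and 6.58 to 11.8 in the IP, a log2(FC) of 0.97 ± 0.16. Plekhb1 rose by the same amount and Gpr37 by 0.63, and none of the 6 fell.

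**Figure D2:**
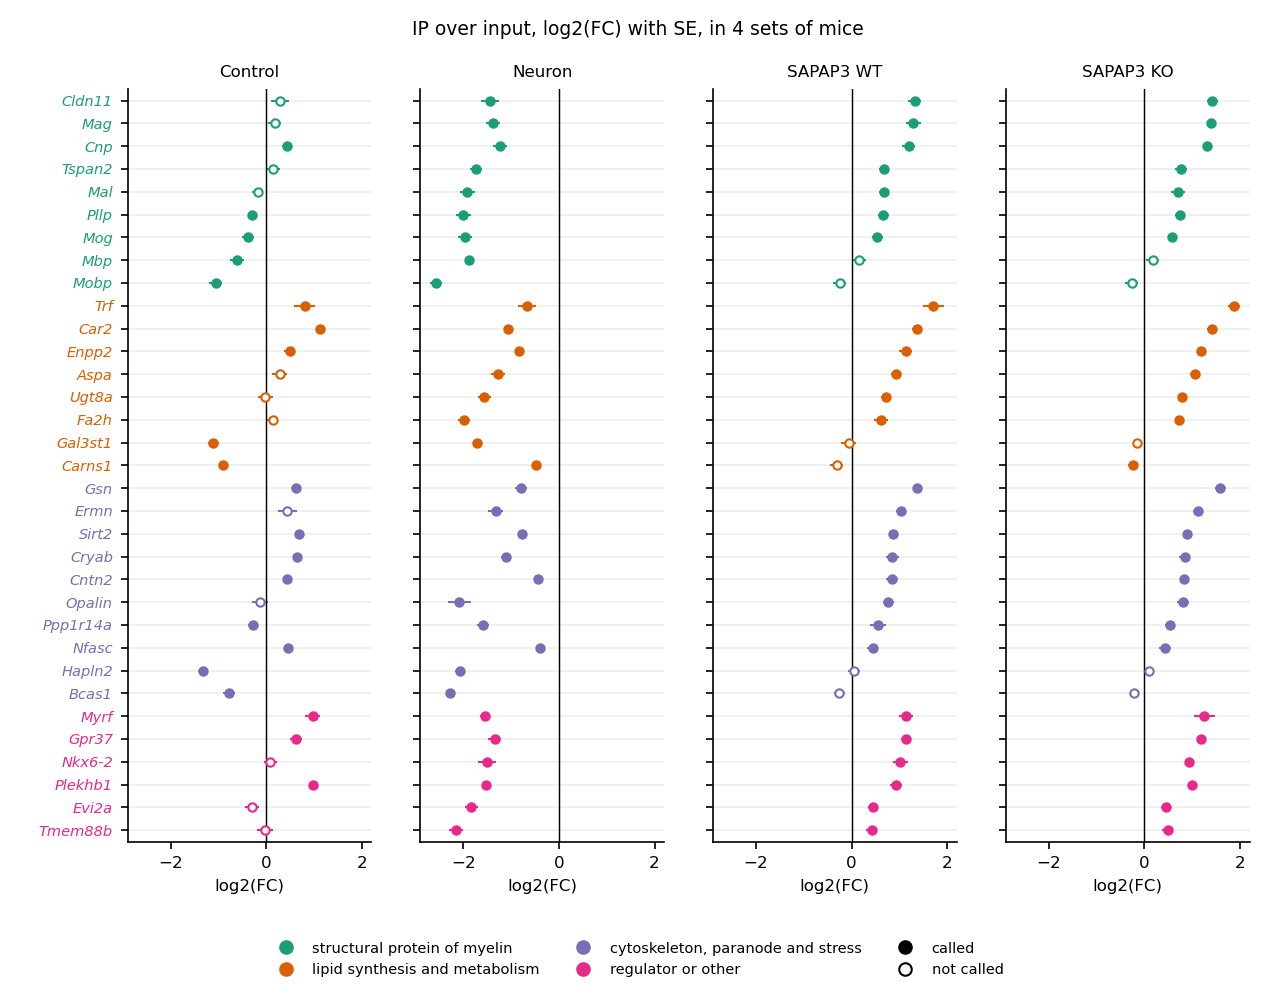
Log2(FC) of IP over input for each of the 33 genes in 4 sets of 4 IP and 4 input libraries, with bars for the SE, grouped and coloured by role. Filled points were called at an adjusted p under 0.05, and all 33 lie below 0 in the neuron panel while 12 lie above and 9 below in the Control panel among those called.

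For 23 of the 33 genes a stretch around the start of transcription was at hand from RefSeq (GRCm38.p6), 250 bases before the start and 50 after. The letters CTGGCAC or CTGGTAC, which MYRF is known to bind, were sought on both strands. They stood in 5 of the 23 genes, or 21.7%, and in 8.1% of the 27025 genes of the table. The 5 were Cnp, Hapln2, Mag, Mog and Opalin. The letters ACAAAG or ACAATG, of the kind bound by SOX factors, stood in 11 of the 23 (47.8%) and in 31.7% of all. These matches describe the letters and were not tested. The 250 bases upstream are shown for Hapln2, Mag and Mog, which span the Control range from the largest drop to no call and whose windows touch no exon of the same gene. The sequences run 5′ to 3′ on the strand of each gene, with the MYRF letters in capitals. Hapln2 lies at chr3:88027512-88027761, Mag at chr7:30914923-30915172 and Mog at chr17:37023399-37023648, all on the minus strand.
Hapln2: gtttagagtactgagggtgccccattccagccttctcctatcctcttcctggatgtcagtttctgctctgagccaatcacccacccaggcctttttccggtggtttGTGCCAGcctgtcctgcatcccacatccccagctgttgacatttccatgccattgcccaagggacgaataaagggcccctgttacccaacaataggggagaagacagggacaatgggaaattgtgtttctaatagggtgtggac
Mag: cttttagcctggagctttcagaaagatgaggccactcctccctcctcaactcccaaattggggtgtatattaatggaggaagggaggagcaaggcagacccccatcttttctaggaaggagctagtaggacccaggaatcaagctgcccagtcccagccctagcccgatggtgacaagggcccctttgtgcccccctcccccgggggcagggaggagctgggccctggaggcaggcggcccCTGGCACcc
Mog: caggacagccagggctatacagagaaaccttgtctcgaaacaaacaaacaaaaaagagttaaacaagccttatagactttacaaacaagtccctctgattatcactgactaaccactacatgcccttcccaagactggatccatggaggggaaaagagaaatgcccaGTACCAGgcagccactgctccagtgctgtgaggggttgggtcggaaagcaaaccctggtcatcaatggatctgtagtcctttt
The capitals begin 144 bases before the start site in Hapln2, 9 bases before it in Mag and 83 bases before it in Mog. In all 3 genes the neuron effect was past the fold limit, at -2.07, -1.38 and -1.97, and the Control effects were -1.33, 0.17 and -0.38.

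The 4 Control IP libraries did not hold these genes in equal amount. Library 2 had the lowest level of 27 of the 33 genes and library 3 the highest level of 23, whereas the summed level of the 10 astrocyte markers differed by only 1.08-fold between the lowest and the highest of the 4 libraries. The summed level of the 33 genes differed by 1.55-fold. The inputs of the same mice had the same order at a narrower range, with 6704 CPM for mouse 2 and 7595 CPM for mouse 3. Without IP library 2, the number of genes called higher went from 12 to 18, and the median of the set from 0.14 to 0.28. Without IP library 3 the median was 0.06 and 12 genes were called lower. The share of all genes called was not computed for either fit.

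**Figure D3:**
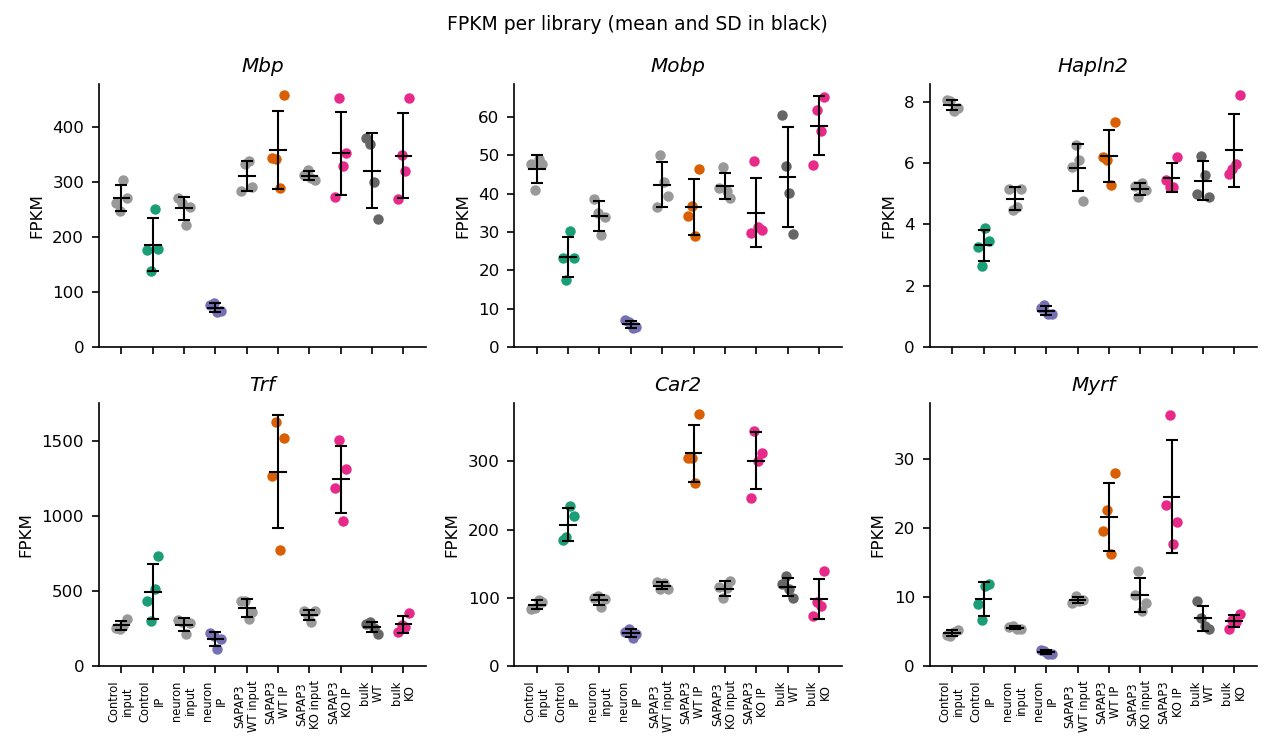
FPKM of Mbp, Mobp, Hapln2, Trf, Car2 and Myrf in each of the 40 libraries by group, with the mean and SD of 4 libraries in black. In the Control IP, Mbp, Mobp and Hapln2 have means below those of their inputs and Trf, Car2 and Myrf means above, while all 6 are lowest in the neuron IP.

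The SAPAP3 IP held more of most of these genes than its input. In the WT IP 27 of the 33 genes were higher than in the input, against 32.7% of 15587 genes tested, and 0 were lower, against 34.6%. In total counts 25 were higher and 3 lower. Past the fold limit 11 were higher, against 10.9%, and 0 lower, against 12.1%, but 6 were higher in total counts. The median of the set was 0.77, which is 1.70-fold, compared with -0.03 over all genes. With the mouse as a block 2 genes, Carns1 and Bcas1, were lower. In the KO IP 27 were higher, against 36.1% of 15583 genes, and 1 was lower, against 35.9%. Past the limit 12 were higher and 0 lower, against 12.3% and 11.5%, but 7 were higher in total counts. The median was 0.80. In total counts 26 were higher and 4 lower. The 1 gene that fell was Carns1, by 0.25 ± 0.09 on the log2 scale (adjusted p = 0.029, edgeR), a call lost when any of 6 of the 8 libraries was left out. With the mouse as a block 3 genes were lower, Carns1, Mobp and Bcas1.

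Trf rose most in both genotypes. It read 430, 435, 310 and 360 FPKM in the WT inputs and 1267, 1627, 775 and 1519 in the WT IP, a log2(FC) of 1.71 ± 0.22. In KO mice it went from 294 to 366 FPKM in the inputs to 968 to 1510 in the IP, a log2(FC) of 1.87 ± 0.13. It was the most abundant transcript of the set per length of gene in both IP groups. Gsn, Car2, Cldn11, Mag and Cnp followed, with WT values of 1.38, 1.36, 1.32, 1.29 and 1.19 and KO values of 1.59, 1.41, 1.42, 1.40 and 1.31. Cldn11 encodes the claudin that seals the layers of myelin, and Mag a receptor on its innermost wrap.

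Mag gives the contrast between cohorts at its widest among the 9 structural genes. Its IP effect was larger by 1.14 on the log2 scale in SAPAP3 WT mice, and the median difference of the 9 was 0.86. Mag read 97.1, 99.8, 106 and 108 FPKM in the Control inputs and 115, 85.4, 139 and 148 in the Control IP. In the SAPAP3 WT inputs it read 106, 108, 94.7 and 93.7, and in the WT IP 247, 256, 178 and 335. Inputs of the 2 cohorts were near the same level, and only the SAPAP3 IP libraries were all above their inputs.

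All 6 regulators and others rose in both genotypes, between 0.42 for Tmem88b and 1.14 for Myrf in WT mice. Nkx6-2, a homeobox factor of the oligodendrocyte lineage, rose by 1.02 in WT and 0.93 in KO mice. The genes that were not higher were the same 6 in both genotypes. Mbp, Mobp, Gal3st1, Hapln2, Bcas1 and Carns1 had WT log2(FC) between -0.31 and 0.16 and KO values between -0.26 and 0.17. These 6 genes were also called lower in the Control IP. Mbp read 284 to 338 FPKM in the SAPAP3 WT inputs and 289 to 458 in the WT IP, which overlapped.

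The difference between cohorts was tested as an interaction. Against the Control effect, the SAPAP3 WT effect was larger in 21 of the 33 genes, against 9.18% of 16032 genes tested, and smaller in 0, against 11.3%. The median difference was 0.76 on the log2 scale, with a median of 0.02 over all genes. Hapln2 differed most, by 1.40 ± 0.17 (adjusted p = 0.00011, edgeR), followed by Mag, Cldn11 and Gal3st1 at 1.14, 1.06 and 1.06. Of the structural genes 8 of 9 differed. The genes that rose furthest in the Control IP differed little, with 0.25 ± 0.13 for Car2, 0.19 ± 0.24 for Myrf and -0.03 ± 0.16 for Plekhb1, none of which was called. With the mouse as a block 26 genes were larger in SAPAP3 WT mice. Strain, age at injection, cohort, sex and any difference of vector cannot be told apart here.

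The neuron effect minus the Control effect was negative in 32 of the 33 genes, against 34.3% of 16371 genes tested, with a median of -1.55. It was widest for Myrf, Plekhb1 and Car2, at -2.52, -2.49 and -2.20. It was positive in 1 gene, Carns1, at 0.41 ± 0.11, against 35.8% of genes tested. Carns1 was a low transcript in every group, with 3.08 to 3.57 FPKM in the Control inputs and 1.63 to 1.86 in the neuron IP.

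**Figure D4:**
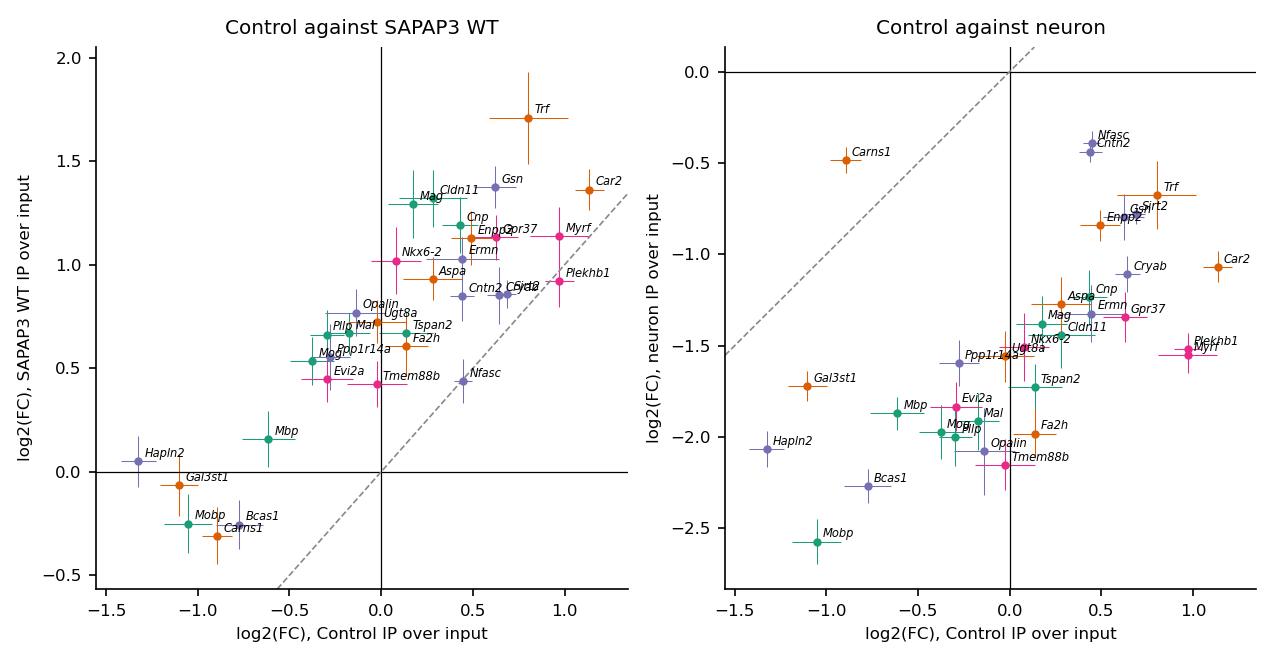
Log2(FC) of IP over input of the 33 genes in the Control cohort on the horizontal axis, set against the SAPAP3 WT effect on the left and the neuron effect on the right, with SE bars, colours by role and a dashed line of equal values. On the left all genes but Plekhb1 and Nfasc, which lie on or just under it, are above the line, and on the right all but Carns1 lie below it.

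Beneath these shifts the genes kept much of their order. Spearman's rho of the 33 log2(FC) values was 0.811 between the Control and the SAPAP3 WT effects, 0.669 between Control and neurons and 0.546 between neurons and SAPAP3 WT. Between SAPAP3 WT and KO, which were separate mice, it was 0.995. The values that involve neurons rested in part on Carns1, Nfasc and Cntn2. Without these 3 genes, which were picked after their values were seen, rho was 0.847, 0.804 and 0.824 over 30 genes in the same order of pairs. These values are across 33 genes that share their lengths, base composition and tissue of origin, and describe the order only. The order went with length weakly, with rho of -0.108, 0.013 and -0.277 between merged exon length and the Control, neuron and SAPAP3 WT effects.

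A list of 22 other oligodendrocyte genes held none of the 33. This list and that of the precursor genes were chosen with earlier results of these data known. In the neuron IP 17 of the 22 fell and 2 rose, against 35.9% and 35.5% of all genes, with a median of -1.56. In the Control IP 3 fell and 7 rose, against 41.2% and 39.2%, with a median of 0.03. In the SAPAP3 IP 19 rose in WT and 19 in KO mice, against 32.7% and 36.1%, with medians of 0.72 and 0.76. Of 12 oligodendrocyte precursor genes, 10 fell in the neuron IP and 0 rose, 3 fell and 5 rose in the Control IP, and 2 fell and 5 rose in the SAPAP3 WT IP, with medians of -1.84, 0.07 and 0.32. Both Control counts of the precursor genes were near or under those shares over all genes. The summed astrocyte markers were 8.13 to 9.04 times their input in the Control IP and 3.77 to 4.27 times in the SAPAP3 WT IP. They took 3878 to 4035 CPM in the Control inputs and 6198 to 7488 in the SAPAP3 WT inputs, and 32590 to 35050 and 23380 to 32010 in the IP libraries, so that both inputs and IP differed between the cohorts. The part of these levels in the differences of myelin RNA between the cohorts was not tested.

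None of the 33 genes passed the threshold between KO and WT mice. Dlgap3 itself was lower in KO mice in the inputs and the IP, with a log2(FC) of -1.19 and -1.40. Part of the Dlgap3 RNA was thus still counted in KO mice. In bulk striatum its log2(FC) was -1.14 ± 0.14, with an adjusted p of 0.32 in edgeR's test, so the knockout did not pass the threshold there. Of the 33 genes 0 were called between KO and WT inputs, where 0.00641% of 15591 genes tested were called, 0 in the IP, against 0.0263% of 15198, and 0 in bulk striatum, against 0.0% of 16020. limma-voom and DESeq2 also called 0 in each. At an unadjusted p under 0.05 there were 4, 0 and 0 of the 33 genes, against 5.6%, 2.6% and 4.9% of all genes. The medians of the set were -0.07, -0.05 and -0.03 on the log2 scale.

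The 4 genes in the inputs were Pllp, Opalin, Tmem88b and Carns1, at -0.22 ± 0.06, -0.26 ± 0.08, -0.19 ± 0.07 and -0.27 ± 0.11, each with an adjusted p of 0.73 in edgeR's test. Opalin, a sialylated membrane protein of the paranodal loops, read 12.7, 15.1, 15.2 and 13.2 FPKM in the WT inputs and 12.1, 12.6, 10.98 and 11.4 in the KO inputs. The ranges did not overlap for Opalin and Pllp, 2 of the 33 genes, both lower. Over all genes tested 1.53% were lower and 2.58% higher without overlap, so 2 of 33 is near that share. In bulk striatum the same genes were at -0.01 and 0.00, and their ranges overlapped. Mbp was at 0.00 ± 0.08 in the inputs, -0.03 ± 0.17 in the IP and 0.12 ± 0.19 in bulk. The SE was 0.05 to 0.15 in the inputs, 0.08 to 0.22 in the IP and 0.11 to 0.26 in bulk. Differences of that order were not detectable here, and larger ones could be missed. Each simulated data set held 200 changed genes picked at random. With a log2 difference of 0.5, 47.5% of them were called in the inputs, 43.5% in the IP and 32.5% in bulk. So many changed genes ease the adjusted threshold, whereas 1, 4 and 0 genes were called in the real data. These shares may therefore be too high for the 33 genes.

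**Figure D5:**
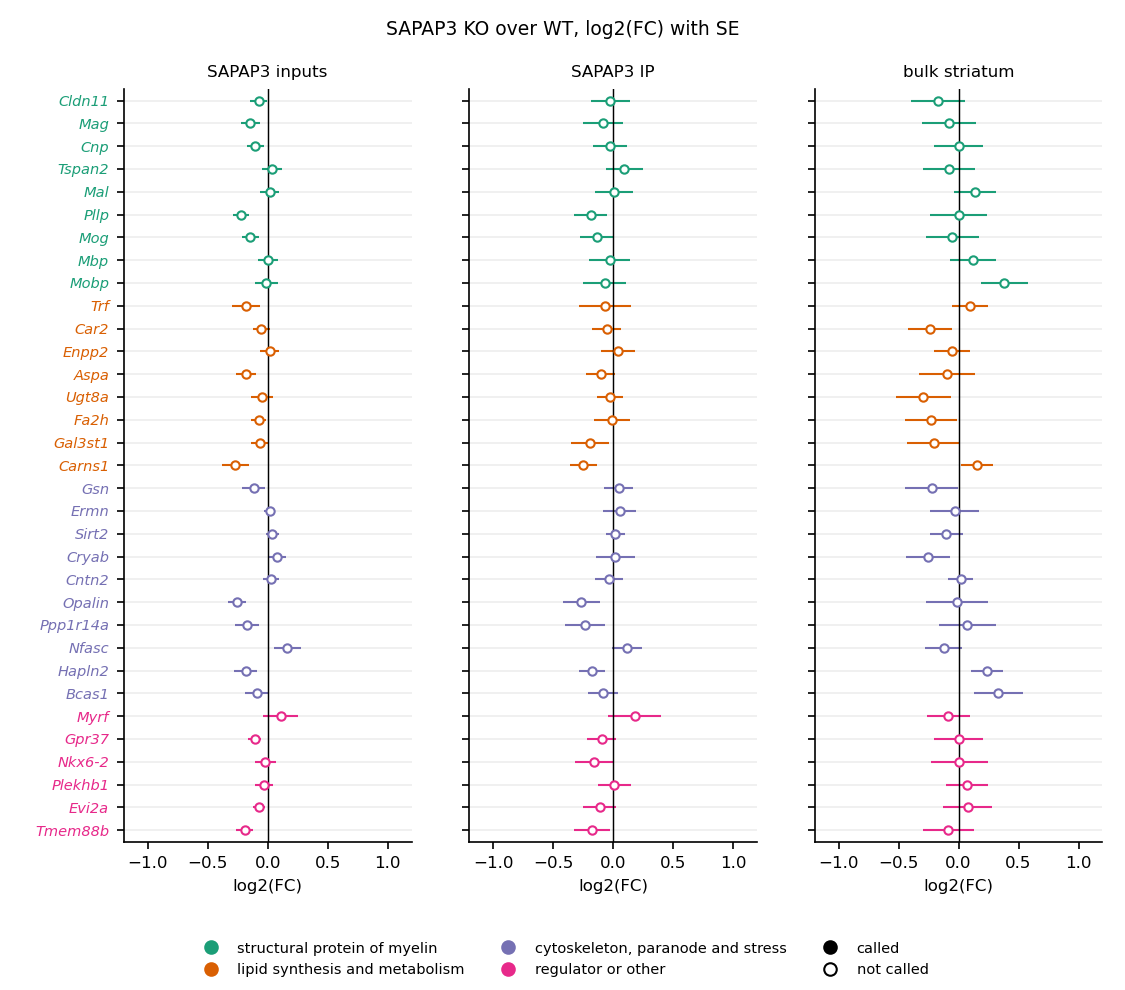
Log2(FC) of SAPAP3 KO over WT for the 33 genes in the RiboTag inputs, the IP and bulk striatum, with bars for the SE and colours by role. All points are open, as 0 of 33 genes passed the threshold in any panel, and the values lie between -0.30 and 0.38.

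The IP effect did not differ by genotype past the threshold either. The KO effect minus the WT effect gave 0 of 33 genes called, against 0.0% of 16059 genes, with 0 at an unadjusted p under 0.05 and a median of 0.02. The values lay between -0.13 for Nkx6-2 and 0.17 for Gsn, with SE of 0.10 to 0.29. In simulated data, again with 200 changed genes, only 14.5% of those given a log2 difference of 0.5 were called in this comparison. This share may also be too high for the 33 genes, as 0 of all genes were called in the real data.

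These genes varied most between mice in bulk striatum. The coefficient of variation of a member among 4 mice had a median of 24.0% in bulk WT and 22.8% in bulk KO, compared with 8.9% and 6.8% in the WT and KO inputs of the SAPAP3 cohort. The IP groups came nearer to bulk. Their medians were 19.1%, 16.9%, 17.4% and 14.7% in the Control, neuron, SAPAP3 WT and SAPAP3 KO IP. One KO library was highest for 32 of the 33 genes and another lowest for 32, and one WT library was lowest for 30. The summed level ran from 5625 to 8827 CPM in WT and from 5983 to 9957 CPM in KO bulk libraries. Mobp, the gene with the largest genotype difference in bulk at 0.38 ± 0.20, read 60.4, 47.2, 40.2 and 29.5 FPKM in WT and 47.5, 61.8, 56.3 and 65.2 in KO mice, which overlapped.

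Across inputs and bulk RNA the levels of the genes did not all stay close. Mbp had means of 271, 252, 311, 312, 321 and 348 FPKM in the Control, neuron, SAPAP3 WT and SAPAP3 KO inputs and in bulk WT and KO striatum, and Trf means of 268.5, 274, 383.5, 339, 259 and 277. These were the 2 most abundant transcripts of the set per length of gene in those groups. Carns1 was lowest, with means between 1.845 and 3.25 FPKM in those groups. Myrf had means of 4.71, 5.53, 9.51, 10.26, 6.85 and 6.46 FPKM in the same order of groups. Parts of some genes are shared with others. Of the merged exon length of Mbp, 57.8% overlaps Gm52337 on the other strand, and 20.1% of that of Evi2a overlaps Evi2 on the same strand. The use of strand in counting is not given in the sources used here, so levels of both genes are uncertain to that extent.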

How the data were processed

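RNA-seq was measured in 40 libraries of striatum, 4 in each of 10 groups, with replicates from separate mice. The authors deposited raw read counts per gene symbol. Per the labels' processing notes, STAR, HTSeq and mm10 were used. The labels and the methods differ in library kit and sequencer, and the use of strand in counting is not given in the sources used here. Total counts were 23438112 to 84109800 per library.

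Counts were filtered with filterByExpr, scaled by TMM and tested with edgeR's quasi-likelihood test (edgeR 4.0.16, R 4.3.3), with Benjamini-Hochberg adjustment over all genes tested and a threshold of 0.05. IP against input was also called with the methods' limit of 1 on the log2 scale. Differences of effects were interaction terms. CPM and FPKM were computed here: FPKM used TMM sizes over all 40 libraries and merged exon lengths of RefSeq GRCm38.p6, found for 99.2% of symbols, and summed CPM used total counts. The fits were tested on simulated data. Python 3.11.15 drew the plots and summaries.

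Alternatives were DESeq2 size factors, total counts, no filter, an FPKM filter, limma-voom (limma 3.58.1), DESeq2 1.42.0, all libraries in 1 fit, Xist as a covariate between genotypes, leaving out each library, and a block for the mouse. IP and input were paired by mouse in the labels. In the neuron cohort, where the labels give IP and input different animal numbers, they were paired by title number, on the correlation alone. Over 11762 genes, same-numbered libraries deviated together, with a lowest correlation of 0.248, 0.48, 0.534 and 0.434 in the Control, neuron, SAPAP3 WT and SAPAP3 KO cohorts. All 33 members are given values, beside Dlgap3, Rpl22 and Xist as checks. The last 2 were added after the rule for named genes was set. The members and the lists for astrocytes, neurons, microglia, endothelium, choroid plexus, oligodendrocyte precursors and other oligodendrocyte genes were chosen with earlier results of these data known.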

Additional observations from a re-analysis of the deposited data

Results flagged for a closer look

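In groups of 4 libraries, a library was singled out where its gap to the nearest of the others took up most of the range of the group, a criterion that chance meets in about 1 of 20 groups. Of 340 groups of values examined, 8 met it, or 2.35%. Cntn2 read 27.59 FPKM in SAPAP3 KO input library 1.0, and 25 to 25.39 in the other 3. Fa2h read 12.65 FPKM in SAPAP3 WT input library 3.0, and 11.57 to 11.72 in the other 3. Gal3st1 read 5.427 FPKM in SAPAP3 WT input library 3.0, and 5.26 to 5.277 in the other 3. Hapln2 read 8.208 FPKM in bulk KO library 4.0, and 5.662 to 5.972 in the other 3. Mal read 118.6 FPKM in neuron input library 3.0, and 157.1 to 163.4 in the other 3. Mobp read 48.48 FPKM in SAPAP3 KO IP library 2.0, and 29.61 to 31.38 in the other 3. Nfasc read 18.7 FPKM in neuron input library 3.0, and 17.3 to 17.41 in the other 3. Plekhb1 read 59.78 FPKM in neuron input library 3.0, and 71.13 to 72.44 in the other 3. Neuron input library 3 accounted for 3 of the 8.

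The effect of the IP differed between cohorts in an interaction test by edgeR at an adjusted p under 0.05. All 33 genes differed between the neuron and the Control cohort, as did 34.3% of all genes downward and 35.8% upward. As neuron minus Control on the log2 scale, the differences were Mbp -1.26, Mobp -1.52, Mog -1.60, Mag -1.55, Cnp -1.67, Mal -1.74, Pllp -1.70, Cldn11 -1.72, Tspan2 -1.86, Ugt8a -1.54, Fa2h -2.12, Gal3st1 -0.62, Aspa -1.55, Carns1 0.41, Car2 -2.20, Trf -1.48, Enpp2 -1.33, Ermn -1.77, Opalin -1.94, Hapln2 -0.74, Bcas1 -1.49, Nfasc -0.84, Cntn2 -0.88, Ppp1r14a -1.32, Gsn -1.42, Sirt2 -1.47, Cryab -1.75, Myrf -2.52, Nkx6-2 -1.59, Gpr37 -1.97, Tmem88b -2.13, Plekhb1 -2.49 and Evi2a -1.54. Of these, 32 were negative, and Carns1 was positive.

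Between the SAPAP3 WT and the Control cohort 21 of the 33 genes differed, all upward, against 9.18% of all genes upward and 11.3% downward. As SAPAP3 WT minus Control on the log2 scale, the differences were Mbp 0.79, Mobp 0.82, Mog 0.93, Mag 1.14, Cnp 0.78, Mal 0.86, Pllp 0.98, Cldn11 1.06, Ugt8a 0.77, Gal3st1 1.06, Aspa 0.67, Carns1 0.61, Enpp2 0.66, Opalin 0.93, Hapln2 1.40, Cntn2 0.43, Ppp1r14a 0.85, Gsn 0.78, Nkx6-2 0.96, Gpr37 0.53 and Evi2a 0.76. Cell type, cohort, strain, age and sex cannot be told apart in these differences.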

How the results depend on the processing

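Of 3688 values of single genes under an alternative, in the 4 comparisons of IP with input and the 2 differences against Control, 3568 kept their direction and side of the threshold, 58 newly passed it, 62 no longer did and 0 reversed. The share of all genes called was computed for the main fits only. Counts under an alternative, here and above, therefore stand without it. Scaling to total counts moved the median of all genes by -0.22, -0.21, -0.17 and -0.20 on the log2 scale in the Control, neuron, SAPAP3 WT and SAPAP3 KO IP, and with it the median of the 33 genes in the Control IP reversed to -0.084. With total counts, 0 genes in place of 1 were past the fold limit upward in the Control IP, 6 in place of 11 in the SAPAP3 WT IP and 7 in place of 12 in the SAPAP3 KO IP, and 3 were lower in the SAPAP3 WT IP and 4 in the SAPAP3 KO IP. In the Control IP, 3 were past the limit upward with no filter and 3 with all libraries in the fit. In the SAPAP3 WT IP, 1 was lower with the FPKM filter and 1 with all libraries in the fit. In the SAPAP3 KO IP, 0 were lower with no filter. Carns1 was not tested under the FPKM filter, which left 0 genes higher in the neuron minus Control difference.

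With the replicate block, 2 genes were lower in the SAPAP3 WT IP in place of 0 and 3 in the SAPAP3 KO IP in place of 1, and no other count moved by over 1.5 times. Over fits that each lacked 1 library, the Control IP had 1 to 3 genes past the limit upward, the SAPAP3 WT IP 0 to 2 lower and the SAPAP3 KO IP 0 to 2 lower. Apart from the scaling and the FPKM filter, the cause was not tested. Between genotypes 0 of the 33 genes were called under every alternative run, and with Xist as a covariate the medians were -0.06 in the inputs, -0.10 in the IP and -0.16 in bulk. The 4 libraries a group limit what the genotype comparisons could detect.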
